A study of Mus musculus with 8 samples.

Results

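Enterocytes, the absorptive cells of the intestinal lining, take up dietary fat and export it. The 8 genes described here code for proteins of that route: the fatty acid binding proteins Fabp1 and Fabp2, the apolipoproteins Apoa1, Apoa4, Apob and Apoc3, the lipid loading protein Mttp and the triglyceride enzyme Dgat1. They were chosen by symbol with earlier results of these data known, and each symbol named 1 of the 27775 gene rows in the count table of each of 2 pancreatic tumors. Absorbed fatty acids and monoglycerides are carried through the cytosol, rebuilt into triglyceride at the endoplasmic reticulum and loaded by Mttp onto apolipoprotein B, and the particle leaves the cell as a chylomicron that also carries apolipoproteins A-I, A-IV and C-III. Hepatocytes run a related route for very-low-density lipoprotein and share most of these genes, whereas Fabp2 and, in the main, Apoa4 are textbook genes of the small intestine.

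Both tumors came from KPC mice, whose genotype includes LSL-Trp53R172H/+ and Pdx-1-Cre. The Pdx-1 promoter drives Cre, so that the conditional alleles of these mice are switched on in the pancreatic lineage. Pdx-1 is also active in the developing duodenum. The mice were untreated control animals whose age was not given, and 1 tumor was labelled medium size and 1 large size. Each was dissociated and captured on the 10x Genomics Chromium 3′ platform, which counts each captured RNA molecule once by its unique molecular identifier (UMI). The labels list 4 technical replicates per tumor, pooled in 1 table, so there was 1 sample per tumor size and no test between tumors was possible. The medium-size tumor gave 2812 cells with 20301669 UMIs in all, and the median cell had 5456.5. The large-size tumor gave 1533 cells with 2239012 UMIs, and the median cell had 1037. Of the cell barcodes, 5 occurred in both tables. Levels are given as counts per 1000000 UMIs (CPM) of the summed cells with an exact 95% Poisson interval, and shares of cells with an exact 95% binomial interval. These intervals cover counting error only. Cells were clustered within each tumor, and a cluster was called by a cell type with the ending "-like" from marker lists, with thresholds that were set after values had been seen.

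The genes lie on 5 chromosomes of the mm10 build (GRCm38), with gene intervals from GENCODE. Apoa1 (chr9:46228580-46230466, plus strand), Apoc3 (chr9:46232933-46235636, minus strand) and Apoa4 (chr9:46240696-46243459, plus strand) lie next to one another on chromosome 9. Fabp1 (chr6:71199827-71205023), Fabp2 (chr3:122895072-122899506) and Apob (chr12:7977648-8016835) lie on the plus strand. Mttp (chr3:138089854-138144968) and Dgat1 (chr15:76502015-76511953) lie on the minus strand. Fabp2, Apoa4 and Mttp overlap annotated genes of the opposite strand, and whether strand was used in counting was not given.

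Promoters of 6 of the 8 genes were found in the RefSeq sequence table (GRCm38.p6). Windows of 250 bases ending just before the RefSeq start, which can lie inside the gene intervals given above, were searched on both strands for CAAAGNNCA, a short form of the direct repeat bound by Hnf4a, the nuclear receptor that controls many enterocyte and hepatocyte genes, and for TATAAA, the TATA box. The 4 sequences below are those with a match. They are shown because the genes had their highest levels in the same cells, with Apob standing apart in the medium-size tumor. Capitals mark the matches, each sequence is written 5′ to 3′ on the gene's own strand, and all 4 genes lie on the plus strand.
Fabp1 (chr6:71199629-71199878): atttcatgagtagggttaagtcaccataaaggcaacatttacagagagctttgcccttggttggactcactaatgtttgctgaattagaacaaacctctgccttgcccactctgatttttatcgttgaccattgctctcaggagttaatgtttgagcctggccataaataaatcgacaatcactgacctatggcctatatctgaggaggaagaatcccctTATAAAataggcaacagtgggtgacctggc
Fabp2 (chr3:122894822-122895071): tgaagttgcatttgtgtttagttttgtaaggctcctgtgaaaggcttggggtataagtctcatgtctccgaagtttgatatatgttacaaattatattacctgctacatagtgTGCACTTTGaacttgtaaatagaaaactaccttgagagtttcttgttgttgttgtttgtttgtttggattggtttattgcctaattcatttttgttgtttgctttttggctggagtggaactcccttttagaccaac
Apoa4 (chr9:46240594-46240843): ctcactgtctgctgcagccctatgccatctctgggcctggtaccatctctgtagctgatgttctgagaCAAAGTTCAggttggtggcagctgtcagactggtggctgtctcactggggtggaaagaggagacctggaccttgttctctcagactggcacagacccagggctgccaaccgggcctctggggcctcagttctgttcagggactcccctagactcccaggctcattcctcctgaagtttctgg
Apob (chr12:7977427-7977676): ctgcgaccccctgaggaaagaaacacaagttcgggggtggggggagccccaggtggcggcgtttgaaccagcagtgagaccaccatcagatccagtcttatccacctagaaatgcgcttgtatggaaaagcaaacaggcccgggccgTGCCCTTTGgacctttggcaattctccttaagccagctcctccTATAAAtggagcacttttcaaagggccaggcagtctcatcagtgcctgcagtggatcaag

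The first motif was matched in Apoa4, as CAAAGTTCA with its first base 182 bases before the start, and on the opposite strand in Fabp2, at 137 bases, and Apob, at 103 bases. TATAAA was matched in Fabp1 at 30 bases and in Apob at 60 bases before the start. The windows of Apoa1 and Mttp held neither. Over all 32851 promoter windows of this length, 5.49% held the first motif and 12.4% held TATAAA. These are matches of letters and not measured binding sites.

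In the large-size tumor the 8 genes were concentrated in 1 cluster. Cluster 4, with 214 of 1533 cells and a median of 821 UMIs per cell, held 6142 of the 7718 UMIs of the 8 genes, which is 79.6% (95% interval, 78.7 to 80.5). It passed 8 of 16 enterocyte markers, among them Vil1, the bundling protein of microvilli, Alpi, Sis and Slc5a1 of the brush border, Krt20 and Prap1. Anpep and Mep1a, which code for brush border peptidases, had no UMI in it. None of the 8 goblet cell markers passed, the 5 Paneth cell markers had no UMI, and of the 5 intestinal stem cell markers Smoc2 had 1 UMI and the others none. The cluster was therefore called enterocyte-like, with the caution that the 8 genes and the markers took part in the clustering, so that their levels by cluster are a description and carry no test. Clustering without the 8 genes, the enterocyte markers and the lipid pathway genes gave a share of 79.5%.

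**Figure D1:**
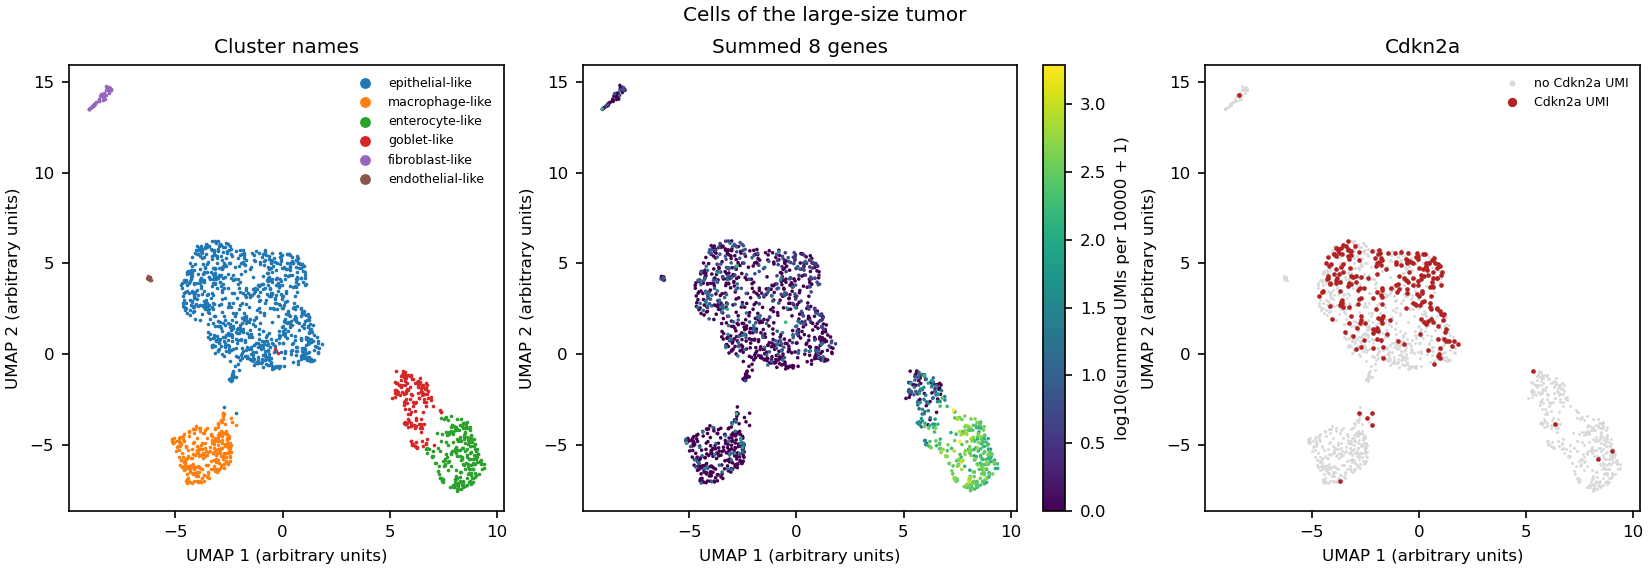
The 1533 cells of the large-size tumor on a UMAP map (axes in arbitrary units), colored by cluster name (left), by the log10 of the summed UMIs of the 8 genes per 10000 UMIs plus 1 (middle) and by presence of a Cdkn2a UMI (right). The cells rich in the 8 genes form the enterocyte-like group of 214 cells and part of the goblet-like group, apart from most cells with Cdkn2a.

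Of the binding proteins, Fabp1, which carries long-chain fatty acids in liver and proximal intestine, was the most abundant member by UMIs. It stood at 21097 CPM (20459 to 21750) in enterocyte-like cells and was detected in all 214 of them. Fabp2, the intestinal form, stood at 3968 CPM (3694 to 4256) and was detected in 90.2% of the cells. In macrophage-like cells, which should lack both genes and had a median of 688 UMIs per cell, the levels were 285 CPM for Fabp1 and 40.8 CPM for Fabp2, with 8.70% and 3.16% of cells positive. Both genes were thus counted at a low level in cells of other types too.

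The apolipoproteins spanned a wide range in enterocyte-like cells. Apoa4, a chylomicron surface protein made during fat absorption, stood at 2435 CPM (2221 to 2663) and in 65.0% of cells. Apoa1, the main protein of high-density lipoprotein, stood at 1676 CPM (1500 to 1867) and in 61.2% of cells. Apob, the scaffold of the chylomicron, stood at 830 CPM (708 to 968) and in 47.2% of cells. Apoc3, an inhibitor of lipoprotein lipase, stood at 132 CPM (86.5 to 194), with 26 UMIs in 9.35% of cells, and at 63.9 CPM when cells with fewer than 500 genes were left out. Macrophage-like levels of these 4 genes ran from 5.10 CPM for Apob to 30.6 CPM for Apoa1, and 0.395% to 1.98% of those cells were positive.

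Mttp, which transfers lipid onto apolipoprotein B, stood at 896 CPM (769 to 1039) and was detected in 50.9% of the 214 cells. Dgat1, 1 of the 2 enzymes that complete triglyceride, stood at 250 CPM (185 to 330) and was detected in 20.1% of them. In macrophage-like cells Mttp stood at 15.3 CPM and Dgat1 at 35.7 CPM, with 1.19% and 2.37% of cells positive. Dgat1, which is made in many tissues, was thus the member with the least contrast: 51.0% of its UMIs lay in enterocyte-like cells, against 83.6% for Fabp1 and 80.4% for Mttp.

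**Figure D2:**
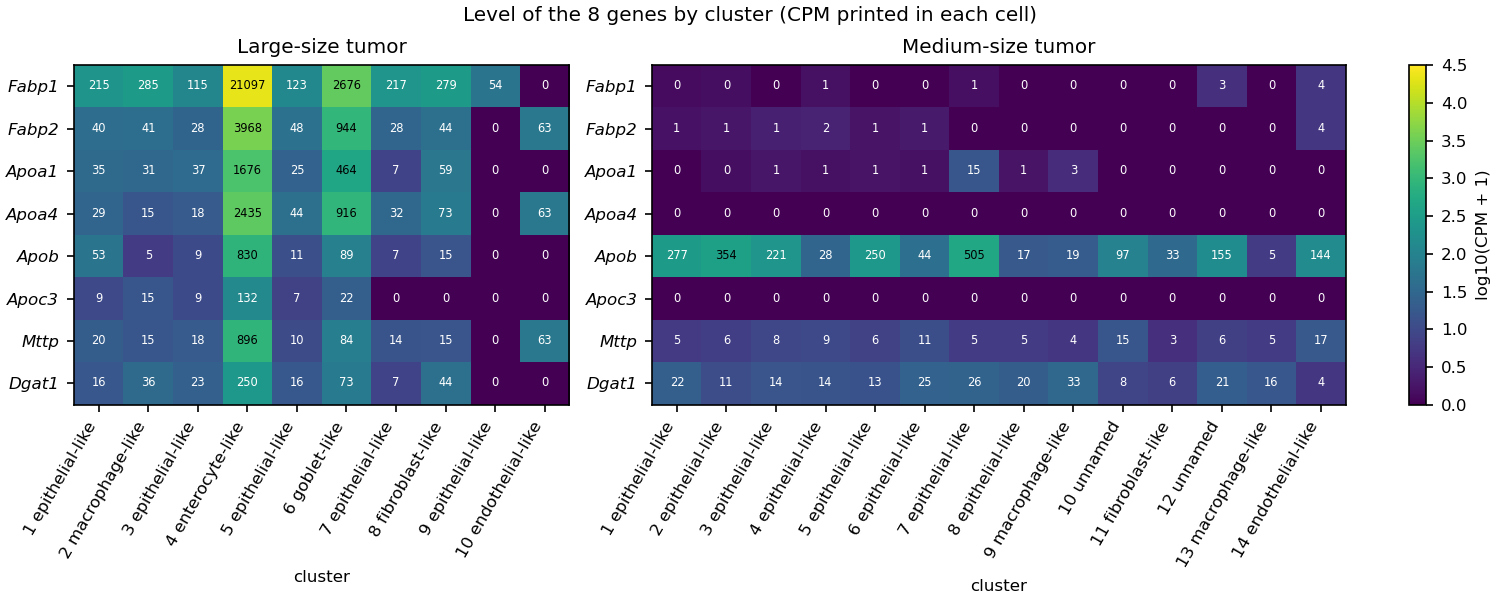
Level of each of the 8 genes (rows) in each cluster (columns) of the large-size tumor (left) and the medium-size tumor (right), with color as log10(CPM + 1) and CPM printed in whole numbers. Cluster 4 of the large-size tumor holds the highest level of each gene of that tumor, and Apob is the bright row of the medium-size tumor.

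Against the 1164 cells outside the enterocyte-like and goblet-like clusters, all 8 genes were at least 4-fold higher in enterocyte-like cells, where 8.92% of 9506 genes with 10 or more UMIs passed the same fold. The ratio was 117 (105 to 132) for Fabp1, 101 (79.6 to 131) for Fabp2, 73.2 (56.1 to 97.0) for Apoa4 and 61.2 (45.5 to 84.0) for Apoa1. It was 59.7 (39.9 to 92.4) for Mttp, 41.8 (29.1 to 61.5) for Apob, 19.0 (9.41 to 40.2) for Apoc3 and 13.7 (8.66 to 21.9) for Dgat1. The contrast is the one that defined the cluster, so nothing is read from the count beyond the order of the ratios.

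The other genes of the route were followed by list in the same contrast, with genes of 10 or more UMIs counted, and over all genes the median log2 ratio was -0.21 and 9.89% were at least 4-fold lower. Of 6 counted genes of triglyceride synthesis, 5 were at least 4-fold higher: Mogat2, the monoglyceride acyltransferase of the gut, at 173 CPM against 3.22, Dgat2 at 168 against 10.2, Agpat2 at 576 against 31.7, Lpin2 at 209 against 39.7, and Lpin3 at 50.9 against no UMI. Gpat4, of the glycerol phosphate route, stood at 10.2 against 40.8 CPM. The median log2 ratio of the list was 4.09. In lipoprotein assembly and secretion 4 of 7 were higher, with a median of 3.90: Apoc2, the activator of lipoprotein lipase, at 1492 against 40.2 CPM, Tm6sf2 at 91.7 against 1.61, Cideb at 45.8 against 1.07, and the Apob messenger editing enzyme Apobec1 at 50.9 against 3.22. Sar1b, Surf4 and P4hb, which serve secretion in most cells, had ratios of 2.43, 1.48 and 3.48. Apoa5, an apolipoprotein of the liver, had no UMI in either set of cells.

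In uptake and intracellular binding 6 of 10 were higher and 2 lower, with a median log2 ratio of 2.26. Npc1l1, the cholesterol importer of the brush border, stood at 132 against 1.07 CPM and Cd36, a fatty acid receptor, at 107 against 4.83. The binding proteins of other cell types stood on the other side: Fabp5, common in skin and macrophages, was at 15.3 against 364 CPM, and Fabp4, of adipose and endothelial cells, had no UMI against 69.2 CPM. Fabp6, the bile acid binding protein of the ileum, and Slc10a2, the ileal bile acid importer, had no UMI in enterocyte-like cells, where 3 counts would be 15.3 CPM, and 2 UMIs each in the whole large-size tumor. Of 3 regulators listed for the proximal small intestine, Gata4 was higher in enterocyte-like cells, on 5 UMIs, while Pdx1, also on 5 UMIs, stood at 25.5 CPM against 11.8 CPM outside, and Onecut2 at 301 CPM against 332 CPM. At this depth these counts say little about a region of the gut. Among colon genes, Car1, Aqp8 and Hoxb13 had none and Slc26a3 stood at 56.0 CPM.

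Of lipid droplet genes 1 of 5 was higher, Cidec at 178 against 2.68 CPM, while Plin2, the droplet coat of most cells, had a ratio of 1.18 (0.667 to 1.96). In cholesterol handling Abcg8 and Soat2 were higher and Apoe and Abca1, both abundant in macrophages, were lower. In fatty acid oxidation 4 of 6 were higher, led by Ehhadh at 71.3 against 1.07 CPM. Of 9 counted regulators 6 were higher: Creb3l3, a factor that activates apolipoprotein genes, at 525 against 7.51 CPM, Hnf4a at 209 against 33.3, Cdx1 at 61.1 against 1.07, Isx at 40.7 against no UMI, and Nr1h3 and Gata4 on 6 and 5 UMIs.

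The 214 enterocyte-like cells differed widely among themselves. Fabp1 ran from 1 to 265 UMIs per cell with a median of 13, Fabp2 from 0 to 24 with a median of 3, Apoa4 from 0 to 17 and Apoa1 from 0 to 14, each with a median of 1. A median of 5 of the 8 genes was detected per cell, 162 cells (75.7%) had 4 or more and 1 cell had all 8. Across these cells, which share 1 library and shallow depth, the correlation of log-scaled levels was highest for Apoa1 and Apoa4 (Pearson r = 0.445) and next for Fabp1 and Fabp2 (0.317). For Apoc3, which lies between Apoa1 and Apoa4 and was seen in 20 of these cells, it was 0.127 with Apoa1 and 0.162 with Apoa4, both below the 0.244 of Fabp2 with Apoa1. It was -0.145 for Fabp1 with Apoa4 and -0.149 for Fabp1 with Apob, and these weak values are given as a description only.

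The 139 cells with an Apoa4 UMI and the 75 without had nearly the same depth, with medians of 820 and 822 UMIs. Apoa1 stood at 2158 CPM in the former and 706 CPM in the latter, a ratio of 3.06 (2.23 to 4.27). Prap1, a secreted enterocyte protein, had a ratio of 1.65 (1.43 to 1.90), Apob of 1.53 (1.06 to 2.24) and Apoc2 of 1.52 (1.16 to 2.02). Fabp1 was lower in the cells with Apoa4, at 19281 against 24752 CPM (ratio 0.779, 0.732 to 0.830). Fabp2 at 1.09 (0.935 to 1.27), Mttp at 1.22 (0.873 to 1.72), Alpi at 1.07 and Creb3l3 at 0.965 had intervals that included 1. The 2 sets were drawn by a member's own UMIs in the same cells, so the ratios describe them and are no comparison of conditions.

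Cluster 6 of the large-size tumor was the other source. Its 155 cells, with a median of 972 UMIs, passed 5 of 8 goblet cell markers, led by Tff3 and Muc2, together with 5 of 16 enterocyte markers, and it was called goblet-like. That name depended on the processing. It was kept by 152 cells when the clustering left out the 8 genes and the lipid genes, but 98 to 109 of the cells fell into a cluster named epithelial-like at resolution 0.4, at resolution 1.2, with 20 principal components and without the highest 5% of Scrublet scores, and 78 into an unnamed cluster with at least 500 genes per cell. It held 12.2% of the UMIs of the 8 genes. Fabp1 stood at 2676 CPM, Fabp2 at 944, Apoa4 at 916, Apoa1 at 464, Apob at 89.4, Mttp at 83.8, Dgat1 at 72.6 and Apoc3 at 22.3. The genes were not in the proportions of the enterocyte-like cells: Apoa4 gave 0.342 UMIs per Fabp1 UMI (0.285 to 0.410) against 0.115 (0.105 to 0.127), and Fabp2 gave 0.353 against 0.188.

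The signal was uneven among these cells. Of the 155 goblet-like cells, 40 had 5 or more UMIs of the 8 genes, and these 40 carried Prap1 in 85.0% and Alpi in 50% of cells, against 52.2% and 20.9% of the others. At least 1 goblet marker was seen in 40% of the former and 46.1% of the latter. With a finer resolution of 1.2 the cells fell into an epithelial-like cluster of 107, with Fabp1 at 2480 CPM but Apoa4 at 37.7 and Apoa1 at 15.1 CPM, and a goblet-like cluster of 58, which took 10 enterocyte-like cells, with Apoa4 at 4387, Apoa1 at 2509 and Fabp1 at 4870 CPM. The level of Apoa4 in the finer goblet-like cluster was thus near that of Fabp1, whereas in enterocyte-like cells it was well below. Scrublet, which scores likely doublets, called none of the goblet-like and 3 of the enterocyte-like cells a doublet, and whether the 40 cells hold RNA of more than 1 cell was not tested.

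Outside those 2 clusters the 8 genes in sum were no higher in epithelial-like than in macrophage-like cells. The summed level of the 8 genes was 320 CPM in the 850 other epithelial-like cells and 443 CPM in macrophage-like cells, and 17 of the 1164 cells had 5 or more UMIs. These 17 had a median of 1802 UMIs and a median Scrublet score of 0.0988, against 0.0489 for the rest, and the part of doublets was not tested. Single genes lay on either side of the macrophage-like level. Apob lay above it in cluster 1, an epithelial-like cluster of 279 cells whose leading genes included Hmga2. Its name rests on 3 of 11 epithelial markers: Krt8 stood at 765 CPM and Krt18 at 1050 CPM, against 56.1 and 35.7 CPM in macrophage-like cells, while Epcam, at 86.4 CPM, was near their 76.5 CPM. These 279 cells are part of the 850 other epithelial-like cells, and the remaining 571 held the 8 genes at 282 CPM (252 to 314). In cluster 1 itself Apob had 24 UMIs, or 53.2 CPM, against 5.10 CPM in macrophage-like cells. Apob gave 0.247 UMIs per Fabp1 UMI in cluster 1 (0.151 to 0.390), against 0.0394 (0.0334 to 0.0460) in enterocyte-like cells.

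**Figure D3:**
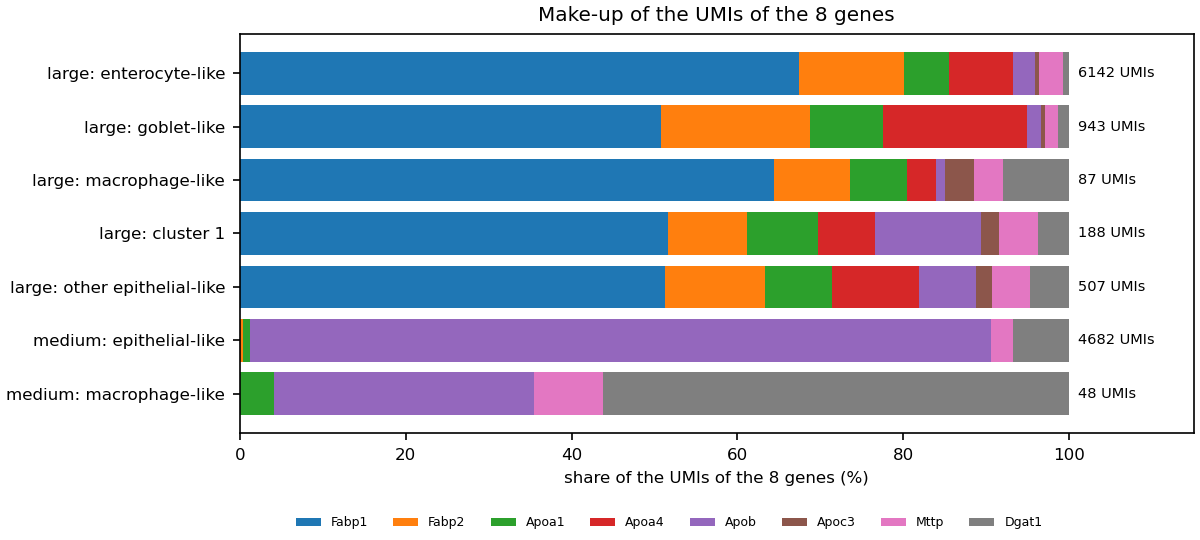
Share of each of the 8 genes (colors) in their summed UMIs (horizontal axis, percent) for classes and clusters of both tumors, with the number of UMIs at the right. Fabp1 makes up 67.4% in enterocyte-like cells of the large-size tumor, and in the medium-size tumor Apob makes up 89.4% in epithelial-like cells.

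The carcinoma markers were then read in the same cells. Cdkn2a, a cell cycle inhibitor whose transcript is often abundant in cells with defective p53, was seen in 2 of the 214 enterocyte-like cells, or 0.935% (0.113 to 3.34). In macrophage-like cells it was seen in 4 of 253, or 1.58% (0.432 to 4.00). In the 850 other epithelial-like cells it was seen in 234, or 27.5% (24.6 to 30.7), with a median depth of 1455.5 UMIs. With each cell thinned to 500 UMIs the shares were 0.467%, 1.19% and 8.71%. Leaving out cluster 1, a choice made once the data had been seen, gave 25.2% of the remaining 571 other epithelial-like cells, and 8.06% thinned. The share in enterocyte-like cells was thus at or below the background of macrophage-like cells, and that of the other epithelial-like cells above it at both depths.

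Other carcinoma and ductal markers followed the same split. Of 9 counted, none was at least 4-fold higher in enterocyte-like cells than outside and 5 were at least 4-fold lower, where 9.89% of the 9506 genes were lower by that fold. Krt7, a ductal keratin, was seen in 3 of the 214 cells, Msln, the mesothelin gene, in 1, and Hmga2, a chromatin protein of embryonic and carcinoma cells, in 0 of 214 (0 to 1.71%), which bounds the cells with a UMI and not those that express the gene below detection. The general epithelial genes Epcam and Krt19 stood at 1946 and 555 CPM in enterocyte-like cells, against 727 and 253 CPM outside. Cluster 6, whose goblet-like name did not hold for most of its cells under other settings, shared the low Cdkn2a, in 2 of 155 cells, but carried Krt7 in 20.6% (14.6 to 27.9).

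**Figure D4:**
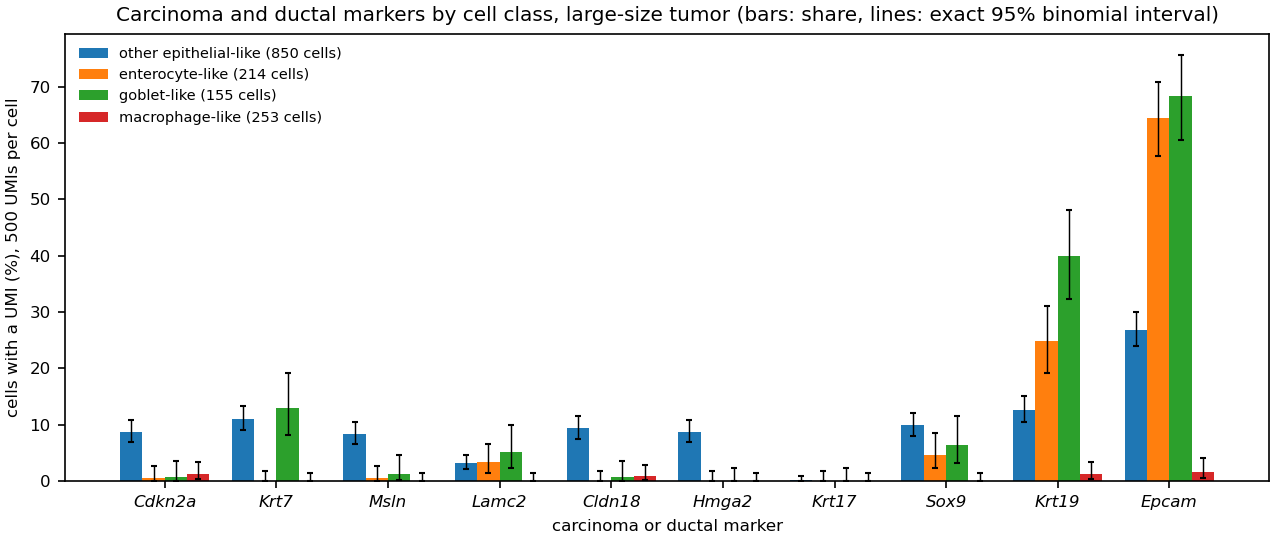
Share of cells with a UMI of each carcinoma or ductal marker in the large-size tumor, with each cell thinned to 500 UMIs (bars, percent) and the exact 95% binomial interval (lines). For Cdkn2a the enterocyte-like bar is 0.467% and that of other epithelial-like cells 8.71%.

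Taken over single cells and without regard to cluster, co-detection depended on the number of UMIs asked for. Of the 653 cells with at least 1 UMI of the 8 genes 14.2% (11.7 to 17.2) also had Cdkn2a, against 17.0% of the 880 with none. Of the 268 cells with 5 or more UMIs, which lay in the enterocyte-like (211) and goblet-like (40) clusters but for 17, 3 cells or 1.12% (0.231 to 3.24) had Cdkn2a, against 19.0% of the 1265 below. Among other epithelial-like cells, those with Cdkn2a held the 8 genes at 248 CPM (210 to 292) and those without at 363 CPM (326 to 402), both below the 443 CPM (355 to 547) of macrophage-like cells. By gene, Fabp1 in the cells with Cdkn2a stood at 124 CPM, against 285 CPM in macrophage-like cells. Apoa4 stood at 40.8 CPM (26.2 to 60.7) with Cdkn2a, 29.1 without and 15.3 (3.15 to 44.7) in macrophage-like cells, on 24, 29 and 3 UMIs. It was seen in 8.55%, 3.90% and 1.19% of these cells, whose median depths were 1982, 1240.5 and 688 UMIs. Apob stood at 10.2 CPM with Cdkn2a, 29.1 without and 5.10 in macrophage-like cells, on 6, 29 and 1 UMIs.

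The medium-size tumor showed another pattern. It held no enterocyte-like cluster, and in the whole tumor Fabp1 had 6 UMIs (0.296 CPM), Fabp2 had 17 (0.837 CPM), Apoa1 had 39 (1.92 CPM), and Apoa4 and Apoc3 had none, where 3 UMIs would be 0.148 CPM. Mttp had 141 UMIs (6.95 CPM) and Dgat1 356 (17.5 CPM). Apob had 4334 UMIs, or 213 CPM (207 to 220), and made up 88.6% of the UMIs of the 8 genes. Of the 8 genes only Apob stood above Dgat1 in this tumor, which had the greater depth per cell.

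Apob in the medium-size tumor lay in epithelial-like cells, which held 96.6% of its UMIs at 231 CPM, against 16.3 CPM in macrophage-like cells. It was detected in 1264 of 2812 cells (44.95%), with 5 or more UMIs in 296 and a highest count of 52. Among the 8 epithelial-like clusters it was highest in cluster 7, at 505 CPM, followed by cluster 2 at 354, cluster 1 at 277, cluster 5 at 250 and cluster 3 at 221. In the remaining 3 it was low, at 43.9 CPM in cluster 6, 28.4 in cluster 4 and 17.3 in cluster 8. Some epithelial genes were weak in cluster 7. In its cells with and without Apob, Epcam stood at 206 and 177 CPM, Krt19 at 247 and 266, and Krt7 at 365 and 252. All epithelial-like cells held these genes at 1091, 1721 and 1417.5 CPM, and macrophage-like cells at 96.7, 114 and 84.7 CPM. Cluster 5 was low in Epcam too, at 223 and 178 CPM, but not in Krt7, at 1593 and 1463 CPM. Mttp, the loading partner of Apob, ranged from 3.01 to 17.0 CPM over all 14 clusters and Dgat1 from 4.24 to 32.8. No cluster came near the enterocyte-like levels. Apob gave 33.8 UMIs per Mttp UMI (28.2 to 40.7) in epithelial-like cells of this tumor, against 0.926 (0.744 to 1.15) in the enterocyte-like cells of the large-size tumor.

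Of the 6 regulators that stood higher in enterocyte-like cells, 3 were scarce in the epithelial-like cells of this tumor, with Creb3l3 at 2.04 CPM, Isx at 0.0553 CPM and Cdx1 at 0. Hnf4a stood at 35.9 CPM, Nr1h3 at 7.90 and Gata4 at 5.91. Gata4, a factor of the proximal gut, was highest in cluster 7, where Apob was highest, at 12.6 CPM (8.09 to 18.8). It stood at 4.60 to 8.08 CPM in clusters 1, 2, 3 and 5, and had 3 UMIs in cluster 4 and none in clusters 6 and 8. Hnf4a and Nr1h3 were also at their highest in cluster 7, at 55.8 and 17.4 CPM. Hepatocyte markers were also low: Alb, the albumin gene, had 2 UMIs, Fga and Fgb none, and of the 10 listed only Ttr, with 3025 UMIs, exceeded 19. Of the Apoa1 UMIs 28 of 39 lay in cluster 7, the cluster with the most Apob, in 13 cells of which 1 held 9.

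Apob and Cdkn2a were found together in many cells of this tumor. Of the 1207 epithelial-like cells with an Apob UMI 83.8% (81.6 to 85.9) also had Cdkn2a, against 51.2% (48.2 to 54.1) of the 1124 without, and 12.2% of macrophage-like cells. The cells lay in different clusters: clusters 4, 6 and 8 held 662 of the cells without Apob and 93 of those with it, and cluster 4 was led by Tff3 and other goblet genes and held the goblet markers at 5956 CPM in sum. Depth differed too, with medians of 7613 and 4736.5 UMIs. The difference of 32.7 percentage points was 3.82 after thinning to 500 UMIs per cell and 13.5 after thinning to 2500, a depth chosen after seeing the data, where the shares were 58.0% and 44.5%. In CPM, Cdkn2a stood at 395 with Apob and 303 without, but within 4 of the 8 clusters (1, 2, 3 and 7) the Cdkn2a CPM was lower in the cells with Apob although the share of cells was higher, so no order is read within clusters. Of the 10 carcinoma and ductal markers, 3 were seen in a larger share of the cells with Apob at 2500 UMIs, namely Cdkn2a, Hmga2 (37.3% against 22.8%) and Msln, and 7 in a smaller share, among them Epcam (56.6% against 72.6%), Krt19 (75.9% against 86.1%) and Sox9 (31.1% against 36.9%). These shares pool clusters of different make-up: within the 8 clusters compared, the share was higher in cells with Apob in 6 for Epcam and in 5 each for Krt19 and Sox9, so no direction is read for these genes.

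The levels by cluster did not run in parallel either. Cdkn2a was low in clusters 4 (72.3 CPM) and 8 (39.9), where Apob was low too. In cluster 6, however, Cdkn2a was at its highest, 567 CPM, with Apob at 43.9. In cluster 1 it was 258 CPM with Apob at 277. Cdkn2a alone therefore did not give the Apob level of a cluster.

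**Figure D5:**
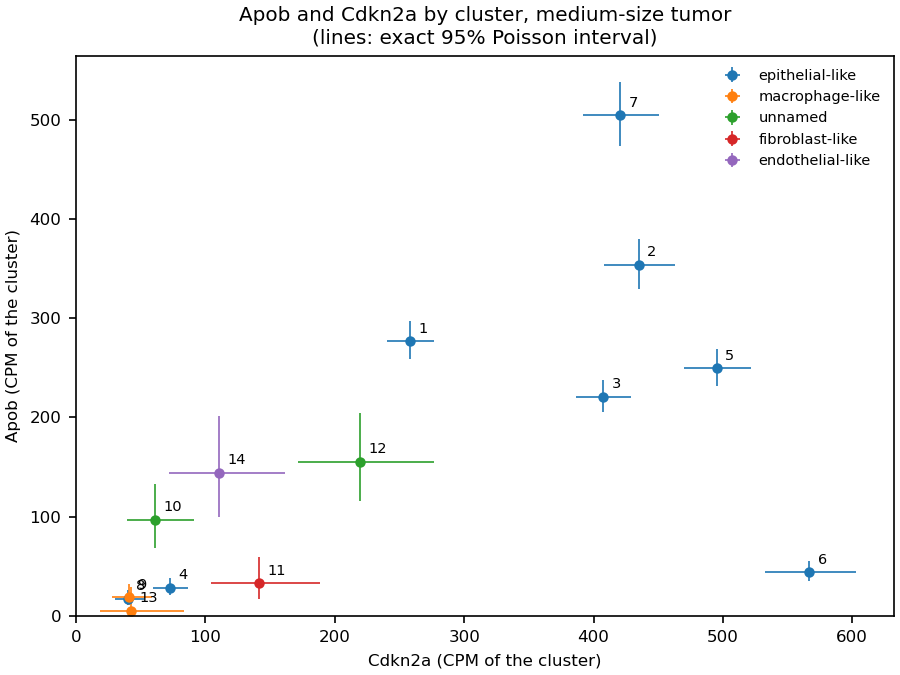
Apob level (vertical axis, CPM) against Cdkn2a level (horizontal axis, CPM) in the 14 clusters of the medium-size tumor, numbered and colored by cluster name, with exact 95% Poisson intervals. Cluster 7 has the most Apob at 505 CPM, and cluster 6 has the most Cdkn2a at 567 CPM with Apob at 43.9 CPM.

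Between the tumors, 7 of the 8 genes reached 200 UMIs in both tables together, and 5 of these were at least 4-fold higher in the large-size tumor, where 0.788% of 8120 genes passed. The ratio of CPM was 7490 (3439 to 20418) for Fabp1, 545 (338 to 939) for Fabp2, 108 (77.6 to 153) for Apoa1 and 14.1 (11.3 to 17.5) for Mttp. Apoa4 was at least 2128-fold higher and Apoc3, under the minimum, at least 130-fold higher, both against 3 UMIs in the medium-size tumor. Dgat1 was 2.45-fold higher (1.93 to 3.07). The levels of the large-size tumor moved with the treatment of its cells. In cells with at least 500 genes Fabp2 stood at 282 CPM, Apoa1 at 117, Apoa4 at 174 and Apoc3 at 9.86, against 456, 207, 314 and 19.2 CPM in all cells. As a mean over cells Fabp1 stood at 3423 CPM, Fabp2 at 716, Apoa1 at 339, Apoa4 at 528, Apoc3 at 31.2 and Mttp at 149, and Fabp1 of the medium-size tumor at 0.499. Apob went the other way between the tumors, at 96.5 CPM in the large-size and 213 CPM in the medium-size tumor, which is 2.21-fold higher in the latter. The median log2 ratio of all genes was -0.14, or -0.06 with TMM scaling. The genes had been chosen with this contrast known, and with 1 mouse per size, tumor size, animal, dissection and depth cannot be told apart.

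The genes whose levels per cell were most like the summed 8 genes differed between the tumors. In the large-size tumor, over 1533 cells and 2870 genes, they included Prap1 (r = 0.743), Phgr1, Gsta1, Papss2, Tm4sf20, Alpi, Clec2h, Muc3 and Apoc2 (0.585). In the medium-size tumor, over 2812 cells and 9730 genes, they were Cpe (0.425), Plac8, Fam213a, S100a6, Cystm1, Prrx2, F2r, Slc25a4, Hspa9 and Cdkn2a (0.259). The points are cells of 1 library each, so the values are descriptive. The first list held Prap1 and Alpi of the enterocyte markers and Apoc2 of the lipid lists and no carcinoma marker, and the second held Cdkn2a and none of the enterocyte markers. Prrx2, on the second list, was also a leading gene of cluster 1 of the large-size tumor, the cluster with 24 Apob UMIs.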

How the data were processed

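Single-cell RNA was measured in 1 medium-size and 1 large-size KPC tumor. The deposited tables hold UMI counts per gene and cell, which the authors made with Cell Ranger (version not given in the sources used here) on mm10, and each table pools the 4 technical replicates of its tumor. All cell barcodes were used. Cells were clustered with Seurat 5.3.0 in R 4.3.3 (log normalization, 2000 variable genes, 10 principal components, resolution 0.8). A marker passed in a cluster when seen in 10% of its cells at 25% or more of the highest cluster's CPM. A cluster was named when at least 3 markers of a list passed and no other list reached 60% of that list's share, and epithelial-like clusters with 50% of the enterocyte or goblet list took that name. Scrublet (scanpy 1.11.5) marked 0 and 9 doublets of the medium- and large-size tumors, and none was removed. The call for 0 of 2812 cells gives no sign that the caller worked there.

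Levels, shares, intervals and thinning were computed in Python 3.11.15 with numpy 2.4.6 and scipy 1.17.1, and TMM factors with edgeR 4.0.16. Ratios between cell groups for the 4-fold count had 1 UMI added to each gene. The members and gene lists were chosen with earlier results of these data known. Named genes were the members, the listed markers and pathway genes, the 10 genes most correlated with the summed members (at least 100 UMIs) and 10 leading genes per cluster. Other resolutions, component numbers, cell filters, detection minimums, thinning and scalings were tried, and the scripts were tested on simulated data. The count of members between tumors in epithelial-like cells was not run, because a medium-size cluster with that name was led by goblet genes. Some genes and an allele of the mice are not reported here.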

Additional observations from a re-analysis of the deposited data

How the results depend on the processing

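The share of member UMIs in enterocyte-like cells of the large-size tumor (79.6%) was 86.0% at resolution 0.4, 75.8% at resolution 1.2, 84.2% with 20 principal components and 76.7% in cells with at least 500 genes. With the goblet-like cluster, an alternative chosen after seeing the data, it was 91.8%. The summed level was 227 CPM as a mean over cells in the medium-size tumor (main 241), and in the large-size tumor (main 3447) 5390 CPM as a mean over cells and 2288 CPM in cells with at least 500 genes, a filter that kept 937 of 1533 cells. The share of cells with a member UMI (52.9% medium, 42.6% large) was 32.9% and 24.3% at 2 or more UMIs, and 10.2% and 28.6% after thinning to 500 UMIs, which turned the order of the tumors. Cdkn2a among large-size cells with a member UMI (14.2%) was 1.12% at 5 or more member UMIs and 2.28% thinned. The excess of Cdkn2a in medium-size epithelial-like cells with Apob (32.7 percentage points) was 39.1 at 5 or more Apob UMIs, 3.82 thinned to 500 and 13.5 thinned to 2500, the last chosen after seeing the data. The cause of these moves was not tested. The 5 members higher in the large-size tumor were 5 with TMM scaling and at 50 UMIs, and 6 with no minimum, while over all genes the count went from 64 to 73, 164 and 2291. Of 48 levels by tumor, 13 moved by over 1.5 times. Of 48 levels in enterocyte-like cells under alternatives, 36 stayed inside their interval, with ratios from 0.483 (Apoc3) to 1.12 (Apoa4). In enterocyte-like cells the fewest UMIs lay behind Apoc3 (26) and Dgat1 (49), so their levels have wide intervals. The planned comparison of the tumors in epithelial-like cells was not run, because a medium-size cluster of that name was led by goblet genes. No paired analysis was possible because the replicates are pooled in 1 table per tumor and no result comes from a test.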

Other observations

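Genes next to Apob did not share its pattern among the epithelial-like clusters of the medium-size tumor. The 5 clusters with high Apob and the 3 with low Apob were set apart by Apob itself, at 302 and 31.1 CPM, and this grouping was made after its values were seen. Within 500000 bases of the gene, Ldah, a lipid droplet hydrolase, stood at 18.9 (16.7 to 21.4) and 15.9 (12.5 to 19.9) CPM, Hs1bp3 at 5.09 (3.95 to 6.45) and 4.02 (2.42 to 6.28), and Rhob, a small GTPase, at 58.9 (54.8 to 63.1) and 57.4 (50.7 to 64.6). Gdf7 had no UMI in either set. The intervals of each neighbor overlapped between the sets.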
